A study of Mus musculus with 2 samples.

Results

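Annexins are cytosolic proteins that bind acidic phospholipids of cell membranes when calcium is present. The 8 annexin genes *Anxa1*, *Anxa2*, *Anxa3*, *Anxa4*, *Anxa5*, *Anxa6*, *Anxa7* and *Anxa11* were examined in microglia of the developing mouse retina together with *Lgals1*, which encodes the secreted lectin galectin 1, and *Vim*, which encodes the intermediate filament protein vimentin. These 10 genes were taken by their symbols from a table of 13549 genes, and all 10 were found there. Microglia are the resident macrophages of nervous tissue. They were sorted by flow cytometry from retinas at postnatal day 5 from CD11c-Cre-gfp;Rosa-TDTom mice. In these mice the *Itgax* promoter (CD11c, an integrin alpha chain) drives Cre fused to GFP, and Cre switches on a lasting TdTomato reporter. The Cd11c-active group (GFP+TdTom+, 4041 cells) used the promoter when sorted, and the Cd11c-lineage group (GFP-TdTom+, 5441 cells) carried the reporter without GFP. Both groups share the genotype. The labels give 8 retinas, 4 female and 4 male, as the source of the sorted cells and do not say how many animals these came from. The CD11c promoter is also used by dendritic cells and other myeloid cells, so the reporter alone does not define microglia. Each group was sequenced as 1 library, so no difference below has a replicate check, no test between the groups could be made, and no p-value is given.

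When a cell dies by apoptosis, phosphatidylserine moves to the outer face of its membrane, where annexin A5 binds it and phagocytes recognise it. Annexins A1, A2, A5 and A6 are recruited to wounded plasma membrane, where they help to reseal it, and annexin A1 released by leukocytes acts on formyl peptide receptors to limit inflammation. Galectin 1 crosslinks sugars on cell surface proteins, and vimentin filaments give migrating cells their mechanical strength. Several of these genes are also strongly used outside microglia: vimentin by endothelium, mural cells, fibroblasts and Muller glia, galectin 1 and annexin A2 by vessels and fibroblasts, and annexin A1 by neutrophils and monocytes.

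The libraries held 12943998 reads (Cd11c-active) and 13402625 reads (Cd11c-lineage). Reads were scaled with the TMM factors of edgeR to CPM, the reads of a gene per 1000000 reads of the library, and each log2 ratio is Cd11c-active over Cd11c-lineage. *Itgax*, whose promoter was sorted on, had 2409 and 1698 reads, a log2 ratio of 0.69 (1.61-fold), so its RNA was also present in Cd11c-lineage. All 15 microglial markers had reads in both libraries, with summed levels of 25355 and 23624 CPM, and 0 of them reached a 2-fold difference. Each had more than 1000 reads over both libraries. Of the 4619 genes with at least 1000 reads, only 5.43% were past 2-fold higher and 4.14% lower. The count of 0 therefore does not set these markers apart from other abundant genes. A counting interval is the exact Clopper-Pearson 95% interval of the ratio. It covers counting error only, since no molecular identifiers are stated and copies of a molecule may be counted repeatedly. The libraries differed by more than that. Of the 1984 genes with 800 to under 1600 reads summed over the pair, 21.7% were more than 2-fold apart, so each gene is also set beside the 500 genes nearest to it in mean CPM. A widened interval is the interval computed after all reads were divided by 80.3, the excess of the variance between the libraries over counting variance in that range of reads. For *Itgax* the widened interval ran from -0.15 to 1.58, and its ratio stood at percentile 93.0 of its 500 nearest genes.

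*Lgals1*, *Anxa2*, *Anxa11*, *Vim* and *Anxa1* were at least 2-fold higher in Cd11c-active, and 0 of the 10 genes were 2-fold or more lower. Among all 13037 genes with at least 20 reads, 23.3% were past 2-fold on the higher side and 21.6% on the lower side, so 5 of 10 on one side stands beside a broad background. That background narrows with abundance. Of the 7 members with at least 1000 reads, *Anxa2* and *Vim* were past 2-fold higher and 0 lower, against 5.43% and 4.14% of the 4619 genes with as many reads. The other 3 members, *Anxa1*, *Lgals1* and *Anxa11*, lie where 2-fold differences are common. The median log2 ratio of the 10 members was 0.98, against 0.01 for all genes with at least 20 reads. With reads scaled by TMM, 9 members were higher and *Anxa7* was lower, but *Anxa4* turned to -0.11 under scaling to library totals and to -0.07 under scaling to the microglial markers. The summed reads of the 8 annexins were 12655 and 9633, 0.58 apart on the log2 scale (counting interval 0.54 to 0.62, widened 0.23 to 0.94). *Anxa3* alone supplied 5400 and 3688 of these reads. Without it the 7 others were 0.47 apart (counting interval 0.42 to 0.52, widened 0.01 to 0.93). In a bulk library, fewer cells of a type and less RNA per cell cannot be told apart.

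**Figure D1:**
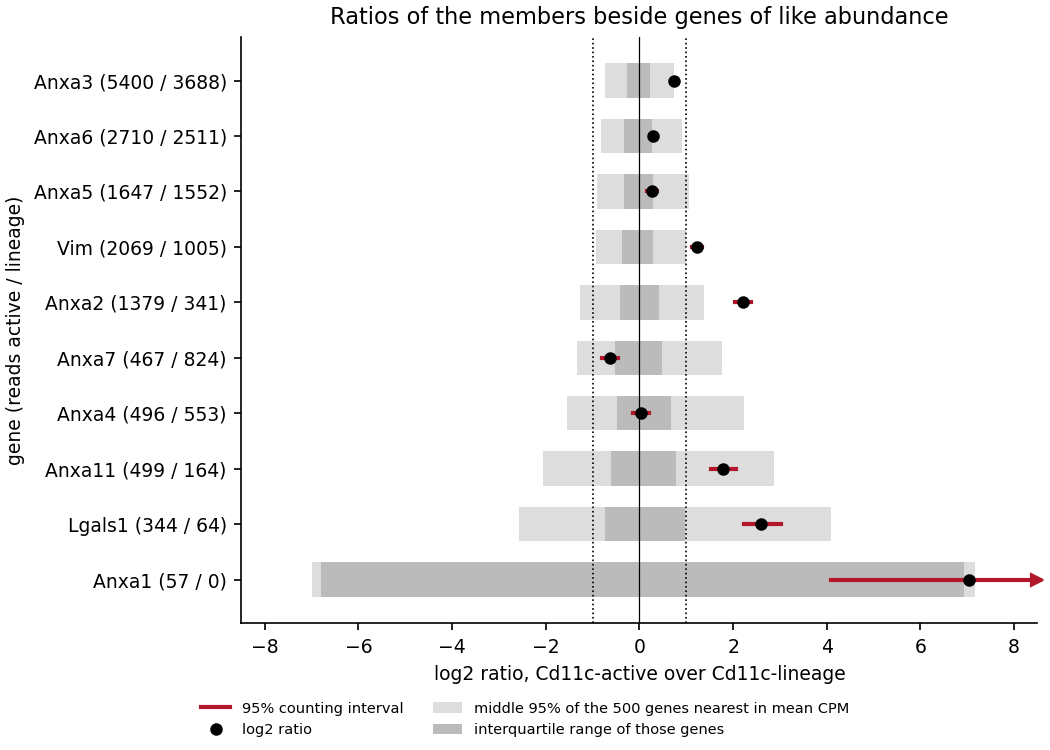
Log2 ratio of Cd11c-active over Cd11c-lineage for each member (black points), with its 95% counting interval (red lines) and, in grey, the middle 95% and the interquartile range of the 500 genes nearest in mean CPM. Reads of both libraries stand beside each gene name, dotted lines mark 2-fold, and the arrow marks an interval without an upper end. *Anxa2* (2.20) and *Vim* (1.23) lie outside the grey range of genes as abundant as they are, while *Anxa11*, *Lgals1* and *Anxa1* lie inside it.

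Promoter sequences are shown for the members past 2-fold that have an entry in the RefSeq promoter table (GRCm38.p6), and for *Anxa5* as an abundant member under 2-fold. Of the 10 members 7 were matched; *Anxa3*, *Anxa6* and *Lgals1* were not. Each line gives the 250 bases before the annotated start, 5′ to 3′. Capitals mark matches, on either strand, to the letters TATAAA of the TATA box, to CCAAT, to the GC box letters GGGCGG, to TGANTCA of the factor AP-1 or to GAGGAAGT of the factor PU.1. None of the matches shown overlap each other.
Anxa1 (chr19:20390672-20390921, minus strand): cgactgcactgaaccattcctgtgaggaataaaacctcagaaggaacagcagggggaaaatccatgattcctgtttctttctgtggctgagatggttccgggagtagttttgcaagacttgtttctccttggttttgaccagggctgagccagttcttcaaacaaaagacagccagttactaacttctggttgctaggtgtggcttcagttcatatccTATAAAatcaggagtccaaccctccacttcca
Anxa2 (chr9:69453433-69453682, plus strand): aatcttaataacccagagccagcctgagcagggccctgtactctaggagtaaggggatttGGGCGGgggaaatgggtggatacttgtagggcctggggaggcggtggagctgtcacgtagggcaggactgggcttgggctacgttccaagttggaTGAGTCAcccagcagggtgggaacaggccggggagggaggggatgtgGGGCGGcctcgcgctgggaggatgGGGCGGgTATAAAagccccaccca
Anxa11 (chr14:25841905-25842154, plus strand): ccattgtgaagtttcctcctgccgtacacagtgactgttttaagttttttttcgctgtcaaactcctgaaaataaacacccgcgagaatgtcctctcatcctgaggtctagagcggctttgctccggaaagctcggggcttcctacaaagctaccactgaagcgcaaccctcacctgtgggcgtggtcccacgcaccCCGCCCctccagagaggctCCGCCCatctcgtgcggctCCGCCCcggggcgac
Vim (chr2:13574061-13574310, plus strand): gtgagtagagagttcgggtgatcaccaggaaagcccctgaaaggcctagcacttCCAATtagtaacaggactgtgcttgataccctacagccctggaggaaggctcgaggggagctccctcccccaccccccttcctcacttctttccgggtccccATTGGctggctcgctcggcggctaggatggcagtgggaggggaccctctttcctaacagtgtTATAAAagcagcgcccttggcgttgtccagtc
Anxa5 (chr3:36475888-36476137, minus strand): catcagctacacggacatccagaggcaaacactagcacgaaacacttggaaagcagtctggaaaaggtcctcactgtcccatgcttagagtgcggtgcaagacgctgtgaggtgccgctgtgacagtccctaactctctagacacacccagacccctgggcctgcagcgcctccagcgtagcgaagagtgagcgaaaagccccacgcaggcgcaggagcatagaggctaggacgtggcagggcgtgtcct

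The letters TATAAA occurred in the windows of *Anxa1* (from base -32), *Anxa2* (-17) and *Vim* (-32), counted back from the start. They were absent from the window of *Anxa11* and from all 5 windows of *Anxa4*, *Anxa5* and *Anxa7*. Among all 32851 windows of the promoter collection, 12.4% held them. *Anxa2* also held the AP-1 letters at -95, present in 6.75% of windows, and GC boxes at -190, -48 and -24. *Anxa11* had 3 GC boxes between -53 and -15, and *Vim* had CCAAT letters at -196 and -94; GC and CCAAT boxes occurred in 32.7% and 33.8% of windows. The PU.1 letters were found in 2.44% of windows and in those of 0 members. CpG pairs numbered 2 in *Anxa1*, 8 in *Vim*, 9 in *Anxa2*, 13 in *Anxa5* and 17 in *Anxa11*, around a median of 6 over the table. The first bases after the start were found in an annotated GENCODE M21 transcript for *Anxa1*, *Anxa2*, *Anxa5* and *Vim*, and not for *Anxa11*. These matches describe the letters only, and no binding was measured.

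*Anxa2* encodes a membrane annexin that, with S100A10, binds plasminogen at the cell surface. The Cd11c-active library held 1379 reads of it and the Cd11c-lineage library 341, which is 112 and 24.3 CPM. The log2 ratio was 2.20 (counting interval 2.03 to 2.38, widened 0.66 to 4.30), a 4.60-fold difference. Among the 500 genes nearest in abundance 95% lay between -1.27 and 1.38, and *Anxa2* stood at percentile 99.2 of them. It was thus well detected in both libraries and farther apart than nearly all genes of its level.

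*Vim* had 2069 and 1005 reads, or 168 and 71.5 CPM. On the log2 scale it was 1.23 higher in Cd11c-active (counting interval 1.12 to 1.34, widened 0.17 to 2.27). This 2.34-fold difference stood at percentile 98.8 of its 500 neighbours, whose middle 95% ran from -0.93 to 0.99. It was the smallest difference among the members past 2-fold. Scaling to library totals brought the ratio to 1.09, still past 2-fold.

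For *Lgals1* the reads numbered 344 (Cd11c-active) and 64 (Cd11c-lineage), or 27.9 and 4.55 CPM. Its log2 ratio of 2.60 (counting interval 2.22 to 3.02), 6.08-fold, was the largest of the members with reads in both libraries. The widened interval ran from -1.15 to 7.81 and included 0, and 95% of its 500 neighbours lay between -2.58 and 4.09. The ratio is therefore large but within what genes with so few reads showed. Correction for transcript length and base composition lowered it to 2.09.

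*Anxa11* encodes the annexin that tethers RNA granules to lysosomes. It had 499 and 164 reads, or 40.4 and 11.7 CPM, and lay 1.79 higher on the log2 scale (counting interval 1.53 to 2.06, widened -0.71 to 5.11). It stood at percentile 93.4 of its neighbours, of which 19.6% were also past 2-fold higher. An antisense gene, *Anxa11os*, overlaps its exons in GENCODE M21 and was not analysed here; the libraries were stranded, per the labels, but whether the counting used strand is not given in the sources used here. The same holds for *Gm16144*, antisense to *Anxa2*, and for *Gm44036*, on the opposite strand of *Anxa4* exons.

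All 57 reads of *Anxa1* came from Cd11c-active. Against the 3 reads that a count of 0 allows, with the 57 reads taken as exact and independent, it was at least 21.6-fold higher; the exact counting interval, which also covers error in the 57, began at 17.0-fold. Of its 500 neighbours in abundance 77.2% had 0 reads in one or the other library, and after division by the overdispersion its interval held equal levels (lower end -5.10). At this depth the absence of *Anxa1* reads from Cd11c-lineage therefore does not set it apart from other genes of its level. The receptors of annexin A1 (*Fpr1*, *Fpr2* and *Fpr3*) were not analysed here.

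*Anxa3*, an annexin of neutrophils that microglia also express, was the member with the most reads. It had 5400 (437 CPM) in Cd11c-active and 3688 (262 CPM) in Cd11c-lineage. Its log2 ratio was 0.74 (counting interval 0.68 to 0.80, widened 0.17 to 1.30), a 1.67-fold difference. The 500 genes nearest in abundance had a middle 95% of -0.74 to 0.74, and *Anxa3* stood at percentile 97.4 of them. It was under 2-fold, yet at the edge of what genes of its level showed. Its ratio was 0.60 under library totals and 0.58 after correction for length and base composition. A gene on the same strand that shares exon bases with it, *Gm42603*, had 22 and 0 reads.

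*Anxa5*, whose protein binds exposed phosphatidylserine, had 1647 and 1552 reads, or 133 and 110 CPM. The log2 ratio was 0.27 (counting interval 0.17 to 0.37, widened -0.64 to 1.31). *Anxa6*, the annexin with a doubled core, had 2710 and 2511 reads, or 219 and 179 CPM, and a ratio of 0.30 (0.22 to 0.38, widened -0.43 to 1.07). Both lay inside the interquartile range of their neighbours or just above it, at percentiles 72.8 and 77.0. Correction for length and base composition lowered them to 0.06 and 0.10. The libraries thus differed little in these 2 abundant annexins.

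*Anxa4*, which aggregates membranes and is best known from epithelia, had 496 and 553 reads, or 40.2 and 39.4 CPM. Its log2 ratio was 0.03 (counting interval -0.15 to 0.21, widened -1.88 to 1.76). *Anxa7*, first described as the granule fusion protein synexin, had 467 and 824 reads, or 37.8 and 58.6 CPM. With a ratio of -0.63 (-0.80 to -0.47, widened -2.29 to 1.05) it was the only member lower in Cd11c-active under TMM scaling. It stood at percentile 20.2 of its neighbours, inside their middle 95% of -1.33 to 1.76.

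**Figure D2:**
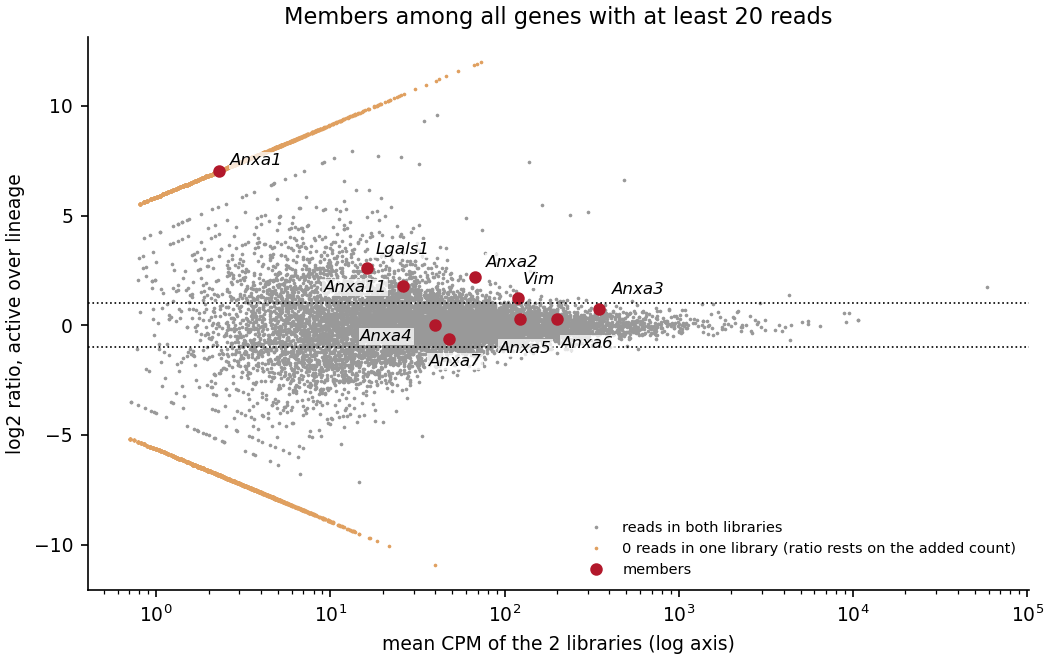
Log2 ratio (vertical axis) against the mean CPM of both libraries (horizontal, log axis) for all 13037 genes with at least 20 reads, with the 10 members in red. Orange points have 0 reads in one library, and their ratio rests on the 0.5 reads added to each count. The spread narrows to the right, so that *Anxa2* and *Vim* stand at the upper edge of the cloud and *Lgals1* and *Anxa11* within it.

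Levels of different genes were compared per kilobase of each gene's longest annotated transcript. *Anxa3* was the highest annexin in both libraries, with 274 CPM per kb in Cd11c-active (exact Poisson 95% interval 267 to 282) and 165 in Cd11c-lineage (159 to 170). It supplied 51.3% and 47.0% of the summed annexin level per length. *Anxa6* followed with 88.2 and 71.8 CPM per kb and *Anxa5* with 77.1 and 63.8. The order of *Anxa6* and *Anxa5* turned in both libraries when the union of annotated exons was used as length (74.9 and 75.1 CPM per kb in Cd11c-active, 61.0 and 62.2 in Cd11c-lineage). *Vim* came next in both libraries, with 57.3 and 24.4 CPM per kb.

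The order of the lower members differed between the libraries. In Cd11c-active *Anxa2* (48.99 CPM per kb) and *Lgals1* (34.8) stood above *Anxa4* (15.3), *Anxa11* (14.8) and *Anxa7* (13.02). The Poisson intervals of *Anxa4* (14.0 to 16.7) and *Anxa11* (13.5 to 16.1) overlapped, as did those of *Anxa11* and *Anxa7* (11.9 to 14.3). In Cd11c-lineage *Anxa7* (20.2) and *Anxa4* (interval 13.8 to 16.3) stood above *Anxa2* (10.6), *Lgals1* (5.69) and *Anxa11* (4.27), and the intervals of *Lgals1* (4.38 to 7.27) and *Anxa11* (3.64 to 4.98) overlapped. With exon unions *Lgals1* stood above *Anxa2* (30.9 and 29.9 CPM per kb) and *Anxa11* above *Anxa4* (9.77 and 8.65) in Cd11c-active, while the Cd11c-lineage order below *Vim* was the same. *Anxa2* made up 9.17% of the annexin level per length in Cd11c-active and 3.04% in Cd11c-lineage. *Anxa1* was the lowest, with 2.76 CPM per kb in Cd11c-active.

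**Figure D3:**
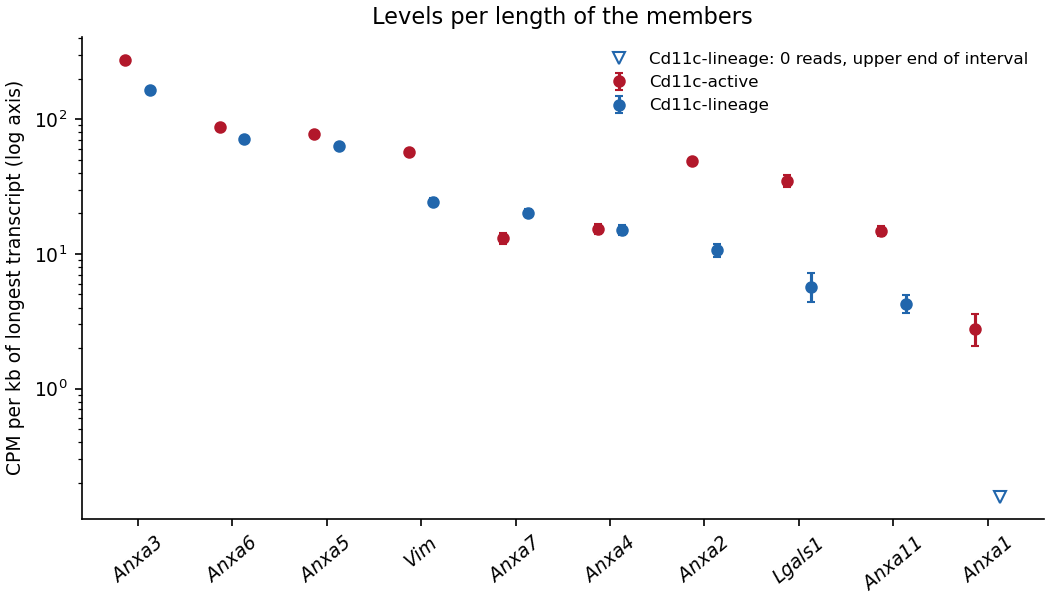
Level of each member in CPM per kilobase of its longest annotated transcript (log axis) in Cd11c-active (red) and Cd11c-lineage (blue), ordered by the Cd11c-lineage level. Bars are exact Poisson 95% intervals of the reads, and the open triangle is the upper end of the interval for *Anxa1*, which had 0 reads in Cd11c-lineage. *Anxa3*, *Anxa6*, *Anxa5* and *Vim* lead in both libraries, and *Anxa2*, *Lgals1* and *Anxa11* show the widest gaps among genes with reads in both.

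Genes that work with the members were read from lists. Of 8 annexin partners 5 were analysed and 0 were past 2-fold, beside 23.3% of all genes higher and 21.6% lower. Their median log2 ratio was 0.27, but 0.14 under library totals and 0.02 after correction for length and base composition. *Rasa1*, a Ras regulator that annexin A6 recruits, had 727 and 1108 reads (-0.42), *Ahnak*, a giant scaffold that binds annexin A2 with S100A10, had 586 and 890 (-0.42), and *Sri*, the calcium-binding partner of annexin A7, had 636 and 387 (0.90). *S100a10*, *S100a6* and *S100a4* were not analysed here. The 4 remaining annexins (*Anxa8*, *Anxa9*, *Anxa10* and *Anxa13*) were not analysed here either.

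Of 18 membrane repair genes 17 were analysed, with a median of 0.16 and 2 past 2-fold in each direction, beside 23.3% of all genes higher and 21.6% lower. Those with the most reads were *Pdcd6ip* (3179 and 3316 reads, log2 ratio 0.13), the ESCRT-III subunit *Chmp4b* (2956 and 2168, 0.63) and the calpain small subunit *Capns1* (2732 and 2157, 0.53). *Dysf*, which encodes dysferlin, had 342 and 0 reads, with a counting interval that began at 6.71 on the log2 scale and a widened one that began at -0.41. *Ehd2*, which stabilises caveolae, had 664 and 124 reads (2.60, widened -0.14 to 5.46). *Capn2*, a large calpain subunit, was lower, with 278 and 647 reads (-1.03, widened -3.78 to 0.83). *Syt7*, with 0 and 112 reads, was the other lower gene.

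The other galectins did not share one direction. *Lgals3*, the galectin of activated macrophages, had 463 and 114 reads (log2 ratio 2.20, counting interval 1.91 to 2.52, widened -0.27 to 8.30). *Lgals9* had 2381 and 2666 reads (0.02), *Lgals3bp*, which encodes a galectin-binding protein, 2956 and 3255 (0.05), and *Lgals8* 460 and 836 (-0.67). Of the 7 genes for glycoproteins that galectin 1 binds and the enzyme that branches their sugars, *Spn* (0 and 73 reads) was past 2-fold lower and 0 were past 2-fold higher, beside 21.6% and 23.3% of all genes, with a median of -0.12. *Spn* lies in the range of 50 to 99 reads, where 88.5% of genes were past 2-fold. *Lamp1* (0.50), *Itgb1* (-0.12) and *Lamp2* (0.04) had the most reads.

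Among 9 analysed genes of other intermediate filaments and their linkers, 4 were past 2-fold higher and 0 lower, beside 23.3% and 21.6% of all genes, and the median was -0.02. *Plec*, which encodes plectin, the protein that links vimentin to the cytoskeleton, had 3901 and 1974 reads and a ratio of 1.17 (counting interval 1.09 to 1.25, widened 0.43 to 1.91), at percentile 99.4 of its neighbours. The lamin gene *Lmnb1*, which also follows cell proliferation, had 1613 and 770 reads (1.25, widened 0.02 to 2.44). *Macf1* (-0.31), *Dst* (-0.61) and the filament gene *Nes* (5765 and 6640 reads, -0.02) were within 2-fold. *Synm* (88 and 0 reads) and *Nefm* (25 and 0) were the other higher genes; of all genes with 50 to 99 and with 20 to 49 reads, 88.5% and 97.1% were past 2-fold. Of 16 cortical actin genes 2 were past 2-fold higher and 0 lower, beside 23.3% and 21.6% of all genes. These were *Cnn2* (969 and 476 reads, 1.21, widened -0.34 to 2.89) and *Cnn3* (185 and 104, 1.01, widened -3.08 to 7.07). *Actb* (0.24), *Tmsb4x* (0.35) and *Msn* (-0.08), which had the most reads, were close to equal, and the median of the list was 0.22.

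Markers of other cell types differed between the libraries too. Each of the 12 endothelial markers was past 2-fold on the Cd11c-active side, beside 23.3% of all genes with at least 20 reads. Their summed levels were 797 and 73.8 CPM. The Cd11c-lineage library had 0 reads of *Cldn5*, *Flt1*, *Esam*, *Erg*, *Emcn*, *Plvap* and *Tek*. *Kdr* had 1926 and 311 reads and *Pecam1*, also carried by leukocytes, 1725 and 523. Of the 7 mural markers with at least 20 reads 5 were higher and had 0 reads in Cd11c-lineage, among them *Cspg4* (380 reads) and *Rgs5* (253), and 2 were lower (*Notch3* and *Tagln*, both with 0 reads in Cd11c-active); the sums were 67.1 and 3.91 CPM. The ratios of *Lgals1* (2.60) and *Anxa2* (2.20) lay between those of *Pecam1* (1.91) and *Kdr* (2.82). *Vim* (1.23) and *Anxa11* (1.79) lay below all 12 endothelial markers. Per length, the level of *Kdr* was 26.3 CPM per kb in Cd11c-active and 3.74 in Cd11c-lineage and that of *Cdh5* 34.9 and 3.58, against 48.99 and 10.6 for *Anxa2*, 57.3 and 24.4 for *Vim* and 34.8 and 5.69 for *Lgals1*. In Cd11c-lineage 9 of the 12 endothelial markers had 0 or 1 read, and *Pecam1*, *Kdr* and *Cdh5* had 523, 311 and 201, beside 1005 of *Vim*, 341 of *Anxa2*, 164 of *Anxa11* and 64 of *Lgals1*. The part of vessel RNA in the differences of these members was not tested.

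The markers of monocytes and neutrophils, border macrophages, glia and neurons went the other way or were mixed. Of 7 analysed monocyte and neutrophil markers 6 had 0 reads in Cd11c-active, among them *Ngp* (230 reads in Cd11c-lineage), *Plac8* (133) and *S100a9* (67), and *Ccr2* had 35 and 0 reads; the sums were 2.83 and 44.1 CPM. These counts stand beside 57 and 0 reads of *Anxa1* and 5400 and 3688 of *Anxa3*, both also used by those cells. The markers had 35 to 230 reads each, and the share of all genes with 0 reads in one library was 71.0% at 50 to 99 reads, 37.9% at 100 to under 200 (*Plac8*) and 10.1% at 200 to under 400 (*Ngp*). All 5 border macrophage markers were past 2-fold lower, beside 21.6% of all genes, with sums of 21.2 and 131 CPM. *Mrc1* had 262 against 1230 reads (widened -4.57 to -0.31). The other 4 had 0 reads in Cd11c-active and widened intervals that included 0. In Cd11c-lineage *F13a1* had 254 reads, *Lyve1* 176, *Cd163* 134 and *Ms4a7* 42. At 20 to 49 reads, the range of *Ms4a7*, 87.5% of all genes had 0 reads in one library. Of the 7 Muller glia, progenitor and astrocyte markers 3 were past 2-fold higher and 2 lower, beside 23.3% and 21.6% of all genes. *Slc1a3*, which Muller glia and astrocytes share, had 73 and 642 reads, *Rlbp1* had 94 and 0, and *Glul*, also used by microglia, had 27773 and 33293. The list summed to 2296 and 2458 CPM, nearly all of it from *Glul*. The other 6 markers, summed apart after the values were seen, had 578 and 1243 reads, or 46.8 and 88.5 CPM. Of the 11 retinal neuron markers 2 were past 2-fold higher and 5 lower, beside the same shares of all genes, with sums of 138 and 249 CPM. *Prox1* (673 and 1099 reads) and *Nrl* (311 and 415) had the most reads and were within 2-fold, and *Pdc* had 0 and 476. On the Cd11c-active side, *Zbtb46*, a dendritic cell marker that endothelium also uses, had 200 and 0 reads, and the B cell marker *Cd79a* 55 and 1, while the globin gene *Hbb-bt* had 0 and 31. Fibroblast markers were not analysed here, so no value for fibroblasts stands beside *Vim*, *Lgals1* and *Anxa2*. The part of each of these cell types in the values of the members was not tested.

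**Figure D4:**
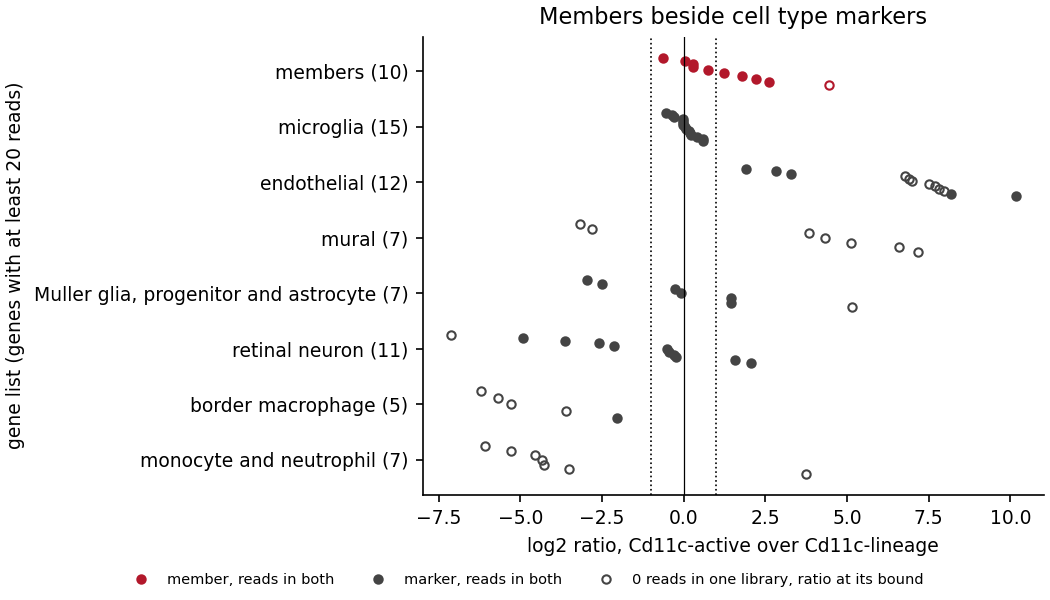
Log2 ratio of Cd11c-active over Cd11c-lineage for the members (red) and for the markers of each cell type (dark), 1 point per gene with at least 20 reads. Open circles had 0 reads in one library and are drawn at the bound that 3 reads allow; dotted lines mark 2-fold. The microglial markers lie within 2-fold, from -0.54 (*Siglech*) to 0.59 (*C1qa*). The 12 endothelial markers lie to the right of 2-fold, and the border macrophage markers lie to the left.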

How the data were processed

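Bulk RNA sequencing of 2 stranded, ribosomal RNA-depleted libraries was analysed. The authors deposited raw counts per gene as whole numbers without normalization, per the file headers, with a minimum already applied (the smallest sum was 6 reads). The submitters' processing notes name cutadapt 3.5, STAR 2.7.9a, featureCounts 1.6.3 and edgeR 4.0.16 and the build GRCm39. The strand setting of the counting and the handling of duplicates and multi-mapping reads are not given in the sources used here. The authors' log2 fold change and log2 mean CPM were also deposited and were not used for any value here. Columns of unmapped samples numbered 0.

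Library sizes were scaled with TMM (edgeR 4.0.16, R 4.3.3; factors 0.954 and 1.05), and 0.5 was added to each count before the log2 ratio. Total reads were 12943998 and 13402625, and a count of 0 allows 3 reads (0.243 and 0.214 CPM). With 1 library per group no model could be fitted and no p-value was computed, so genes were counted by size: at least 20 reads over both libraries with a log2 ratio of 1 or beyond in either direction. The overdispersion was the squared robust SD of the log2 ratio over the median counting variance in 1978 genes with 800 to under 1600 reads and at least 1 in each library. Transcript lengths and GC content came from GENCODE M21 (GRCm38), which matched 99.6% of genes; coordinates are given only for RefSeq promoters (GRCm38.p6). Alternatives were library totals, DESeq2 1.42.0 size factors, TMM without ribosomal RNA, mitochondrial, 7SK and 7SL genes, other filters and added counts, correction of the ratio for length and GC content, and, added after the data were seen, scaling to 15 microglial markers. The procedure was tested on simulated data. Python 3.11.15 with scipy 1.17.1 was used.

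The members and gene lists were chosen with earlier results of these data known. All members are named, and from each list of related genes the 3 with the most reads and those with at least 200 reads past 2-fold, up to 6; from each marker list the 2 with the most reads and those with 0 reads in a library, up to 6. Others named were chosen after their values were seen.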

Additional observations from a re-analysis of the deposited data

How the results depend on the processing

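The count of members past 2-fold higher stayed at 5 under the 4 other scalings, the correction for length and GC content, the added count of 5 and no filter on low counts, and was 4 with at least 200 reads, which leaves out *Anxa1*. After division of the reads by the overdispersion, and counting a gene past 2-fold only where its 95% interval excluded 0, it was 2 (*Anxa2* and *Vim*). The lower count was 0 throughout. Over all genes the same division left 193 higher and 56 lower, and a minimum of 200 reads left 1262 and 1091, against 3033 and 2818. Library totals moved the median of all genes by -0.14 on the log2 scale and scaling to the microglial markers by -0.10; the all-gene balance turned to 2814 higher and 3081 lower under library totals, to 2861 and 3015 under the microglial scaling and to 2882 and 2911 under the correction for length and GC content. *Anxa4* changed sign under these 2 scalings and no other member did. The fitted ratio of *Anxa1*, 7.03, rests on the added count and was 3.82 with 5 reads added. No paired analysis was possible because each group had 1 library.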

Other observations

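The share of promoters with the letters TATAAA was counted over the whole table after 3 members had been seen to hold them. Among genes with at least 1000 reads and a RefSeq promoter, 19 of 187 genes past 2-fold higher in Cd11c-active held them (10.2%), as did 247 of 3409 genes within 2-fold (7.25%) and 10 of 159 past 2-fold lower (6.29%). Among genes with at least 20 reads the shares were 8.43%, 7.15% and 9.41%. A gene with several annotated starts was counted as holding the letters if any window held them. No test of these shares was made.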
